A study of Rattus norvegicus with 3 samples.

Results

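The mitochondrial genome of the rat encodes 7 subunits of respiratory complex I, and their transcripts were followed here in 3 RNA libraries of adult rat liver. The genes are Nd1 (ENSRNOG00000030644), Nd2 (ENSRNOG00000031033), Nd3 (ENSRNOG00000033615), Nd4 (ENSRNOG00000029707), Nd4l (ENSRNOG00000031053), Nd5 (ENSRNOG00000029971) and Nd6 (ENSRNOG00000029042). They were chosen by identifier, with earlier results of these data known, and make up 7 of the 26404 gene identifiers in the count tables. The tables carry no gene names, so the names are those given to these identifiers for this work, and neither coordinates nor sequences were used here. All 7 had reads in every library and passed the minimum level in every comparison.

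The healthy library came from untreated rats with an intact liver. The saline library came from liver remnants of rats given 1 ml of saline before a 2/3 hepatectomy, an operation that removes part of the liver and leaves a remnant that regrows. The etanercept library came from remnants of rats given etanercept at 9 mg/kg in 1 ml, 16 to 18 hours before the same operation. Etanercept is a fusion protein of a TNF receptor and an antibody Fc part that captures the inflammatory cytokine TNF. Both hepatectomy groups were sampled 32 hours after surgery, and no sham-operated animals were analysed here. Each library was made from the combined RNA of 3 rats, so each group is 1 library, no spread between animals could be measured and no test between groups was possible. The tissues are called healthy liver, the saline remnant and the etanercept remnant below, and each value of a tissue is that of its library. Every interval given is an exact 95% interval that covers counting error only.

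Complex I, the NADH:ubiquinone oxidoreductase, takes electrons from NADH, passes them to ubiquinone and pumps protons across the inner mitochondrial membrane. The ND proteins are hydrophobic core subunits of its membrane arm, while the subunits that bind NADH and the iron-sulfur clusters are encoded in the nucleus and imported. Mitochondrial genes are transcribed as long precursors from both strands of a circular genome and then cut into single messages. All ND genes except Nd6 are read from the same strand and are called heavy-strand genes here, and Nd6 is encoded on the other, the light strand. Hepatocytes are rich in mitochondria, which serve the urea cycle, fatty acid oxidation and gluconeogenesis of the liver.

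The etanercept library stood apart before any ND gene was considered. Gene reads numbered 5993834 in the healthy, 2645152 in the saline and 3639886 in the etanercept library. The part of uniquely aligned reads that lay outside annotated genes was 19.9% (healthy), 21.7% (saline) and 77.4% (etanercept). Treatment and library make-up therefore cannot be told apart in any comparison with this library. Entries for reads aligned to several places, which are not part of the gene counts, numbered 3.17, 4.14 and 2.10 per uniquely aligned read in the healthy, saline and etanercept libraries. Nuclear copies of mitochondrial DNA can give such alignments, and the counts of ND genes hold only the reads that aligned uniquely. The part of either measure in the ND results was not tested.

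Reads of all 7 ND genes were more abundant in the etanercept library than in the other libraries, by an amount that depended on the scaling. A difference in the transcripts of the tissue cannot be told apart from the make-up of that library. With the main scaling the sum of the ND reads was 18.8-fold above saline and 12.98-fold above healthy. Per uniquely aligned read it was 3.77-fold and 3.47-fold above, with Nd6 below 2-fold against both and Nd3 below 2-fold against healthy. In the saline remnant all 7 genes were somewhat lower than in healthy liver with the main scaling. Per total gene read only Nd1 was lower beyond its counting interval, and Nd5 was higher. Levels are CPM, read counts relative to library size, scaled by the trimmed mean of M-values (TMM), a method that sets the libraries level on the bulk of genes. Summed over the family, the level was 596 CPM (575 to 617, 3200 reads) in healthy liver. It was 412 CPM (390 to 435, 1334 reads) in the saline remnant and 7735 CPM (7641 to 7830, 25684 reads) in the etanercept remnant. The ND share of total gene reads, a scaling without TMM, was 0.0534% in healthy liver (0.0516 to 0.0553). It was 0.0504% in the saline remnant (0.0478 to 0.0532). These intervals overlap, whereas the share in the etanercept remnant was 0.706% (0.697 to 0.714). A level in bulk tissue cannot tell fewer mitochondria-rich cells from less of the transcript in each cell.

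**Figure D1:**
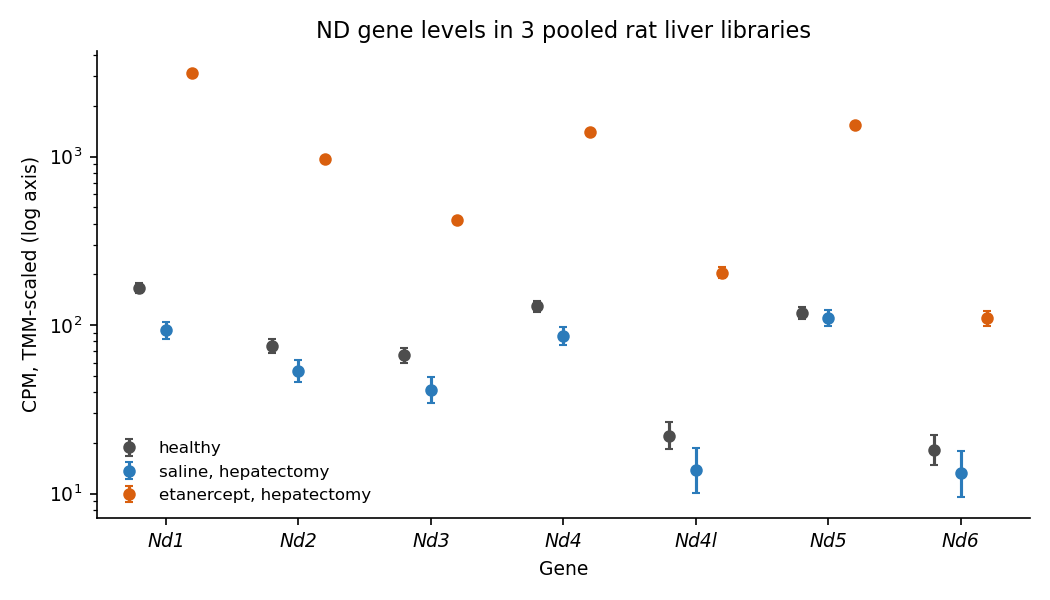
Level of each ND gene in healthy liver and in the saline and etanercept remnants, in TMM-scaled CPM on a log axis, with exact 95% counting intervals (1 pooled library per group). The etanercept remnant is highest for all 7 genes, and the saline points lie below the healthy ones with this scaling, with overlapping intervals for Nd4l, Nd5 and Nd6.

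Nd1 forms part of the site where ubiquinone is bound, at the junction of the membrane arm with the arm that reaches into the matrix. Its level was 166 CPM (889 reads) in healthy liver, 93.0 CPM (301 reads) in the saline and 3114 CPM (10339 reads) in the etanercept remnant. Nd3, which also lies near the ubiquinone site, stood at 66.1 CPM (355 reads), 41.4 CPM (134 reads) and 418 CPM (1388 reads) in the same order. Both genes were lowest in the saline remnant and highest in the etanercept remnant. By number of reads, Nd1 was the 34th of 13036 detected genes in the etanercept remnant, against the 815th of 15966 in healthy liver and the 1273rd of 14631 in the saline remnant.

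Nd2, Nd4 and Nd5 are the large subunits that resemble sodium/proton antiporters and are held to form proton channels of the membrane arm. Nd2 stood at 75.4 CPM (405 reads) in healthy liver, 53.5 CPM (173 reads) in the saline and 962 CPM (3193 reads) in the etanercept remnant. Nd4 stood at 130 CPM (698 reads), 86.5 CPM (280 reads) and 1395 CPM (4631 reads). Nd5, the subunit at the far end of the arm, was at 118 CPM (636 reads), 111 CPM (358 reads) and 1533 CPM (5090 reads). With TMM the intervals of the healthy and saline levels overlapped for Nd5 and not for Nd2 and Nd4. As shares of gene reads it was the reverse: those of Nd2 and Nd4 overlapped and that of Nd5 was higher in the saline remnant.

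Nd4l and Nd6 are small membrane subunits between the ubiquinone site and the antiporter-like subunits, and had the fewest reads of the family in every library. Nd4l was at 22.2 CPM (119 reads) in healthy liver, 13.9 CPM (45 reads) in the saline and 204 CPM (678 reads) in the etanercept remnant. Nd6 was at 18.2 CPM (98 reads), 13.3 CPM (43 reads) and 110 CPM (365 reads). For both, the intervals of the saline and healthy levels overlapped and the etanercept level lay above them. The strand setting of the counting is not given in the sources used here, so heavy-strand transcripts antisense to Nd6 may be among its reads. Levels were not compared between ND genes, because gene lengths were not used here.

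Saline and healthy tissue were compared to describe the ND transcripts of the regrowing remnant. With TMM scaling all 7 were lower in the saline remnant, by 1.07-fold for Nd5 to 1.78-fold for Nd1. None reached 2-fold, the difference called here in genes of at least 5 CPM in the higher library, and 9.66% of the 9755 genes tested were at least 2-fold lower. Nd1 was 1.78-fold lower (interval 1.56 to 2.03), Nd3 1.59-fold (1.30 to 1.96) and Nd4l 1.58-fold (1.12 to 2.30). Nd4 was 1.5-fold lower (1.31 to 1.73) and Nd2 1.41-fold lower (1.18 to 1.69). For these 5 genes the interval lay wholly on the lower side with TMM, as it did for 28.8% of all genes tested. Per total gene read this held for Nd1 alone, beside 12.1% of genes, and per uniquely aligned read again for Nd1 alone, beside 13.4%. The intervals of Nd5 (0.939 to 1.22) and Nd6 (1.36-fold lower, 0.95 to 2.01) included no difference. The median log2 fold of the family was -0.59, beside -0.07 over all genes tested, and 21.5% of these had a fold at or below the family's median.

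How far the family was below healthy depended on the scaling. Per total gene read, the median log2 fold of all genes tested moved from -0.07 to 0.41, and that of the ND genes to -0.14. In that scaling Nd1 was still lower, with a log2 fold of -0.38 (-0.58 to -0.19), while Nd2 stood at -0.045 (-0.31 to 0.21) and Nd4 at -0.14 (-0.34 to 0.064). There Nd5 was higher in the saline remnant, with a log2 fold of 0.35 (0.16 to 0.54), and Nd6 stood at 0.0010 (-0.56 to 0.52). Per uniquely aligned read Nd5 was likewise higher, at 0.32 (0.13 to 0.51). The split of calls over all genes moved too, from 9.32% higher and 9.66% lower with TMM to 20% higher and 3.66% lower with total reads, with 0 of 7 ND genes called either way. Relative to the median of all genes tested, the ND median stood at -0.52 with TMM and at -0.54 with total reads. The summed fold was 1.44-fold lower with TMM and 1.06-fold lower with total reads. Scaled by TMM from the healthy and saline libraries alone, without the etanercept library, the sum was 1.42-fold lower.

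The etanercept remnant was compared with the saline remnant to address the capture of TNF before surgery. All 7 ND genes were called higher in the etanercept remnant, where 18.3% of the 9991 genes tested were. The summed level was 18.8-fold higher (17.8 to 19.8). Nd1 showed the greatest fold of the family, 33.4 (29.8 to 37.7), and its interval overlapped that of no other ND gene. Nd2 was 17.9-fold higher (15.4 to 21.1), Nd4 16.1-fold (14.3 to 18.2), Nd4l 14.5-fold (10.9 to 20.3) and Nd5 13.8-fold (12.4 to 15.5). Nd3 was 10.1-fold (8.45 to 12.1) and the light-strand gene Nd6 8.19-fold higher (6.02 to 11.6). The median log2 fold of the family was 3.86, beside 0.0040 over all genes tested. Of the 9991 genes, 142 (1.42%) had a fold at or above that median, 78 a fold at or above that of Nd1, and 254 one at or above that of Nd6. Per total gene read the median of all genes was -0.46 and that of the ND genes 3.44. All 7 were still called higher, where 10.8% of genes were higher and 31.6% lower, against 18.3% and 19.2% with TMM.

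**Figure D2:**
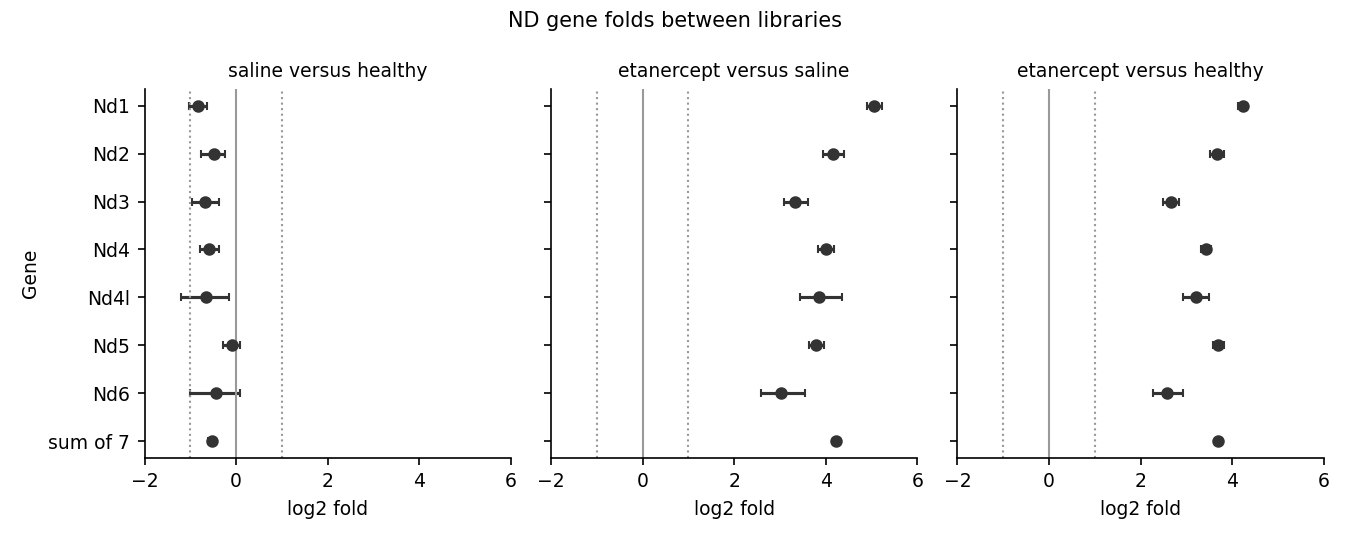
Log2 folds of the 7 ND genes and of their summed reads in the 3 comparisons, with exact 95% counting intervals; dotted lines mark 2-fold. In saline against healthy all points lie between -0.83 and -0.10 with this TMM scaling (Nd5 and Nd6 cross 0 per total gene read), and in both etanercept comparisons they lie between 2.59 and 5.06.

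**Figure D3:**
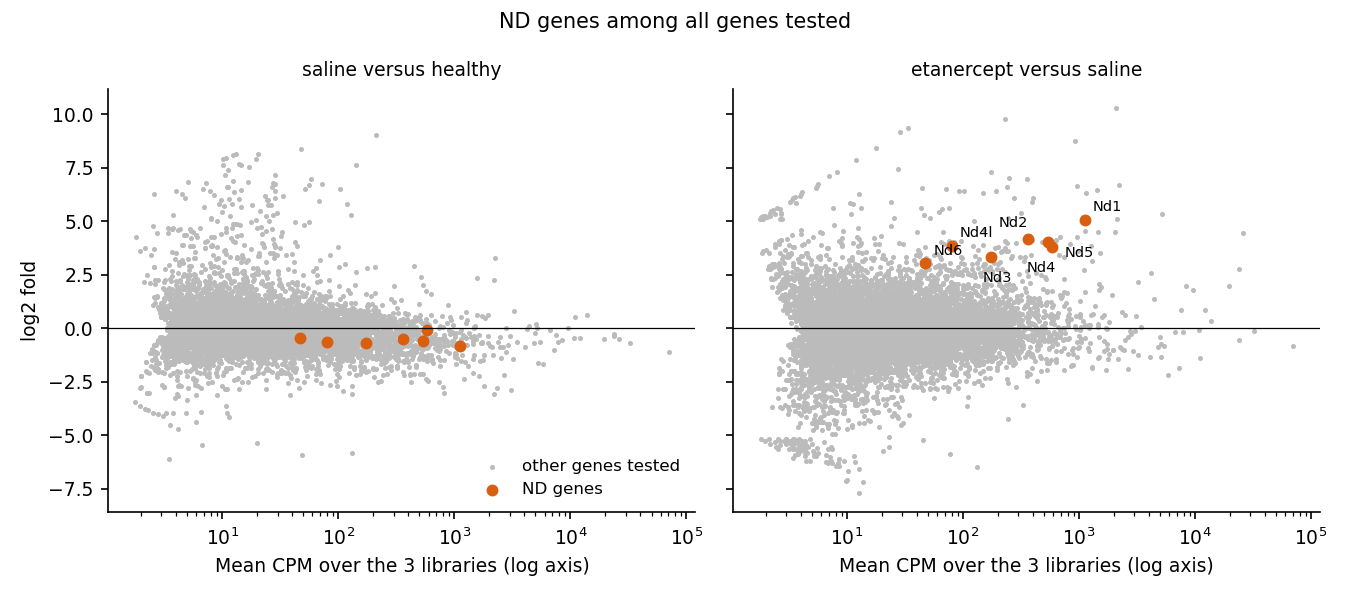
Log2 fold (y axis) against the mean level over the 3 libraries in CPM (x axis, log) for all genes tested (grey) and the ND genes (orange), in saline against healthy on the left and etanercept against saline on the right. The ND genes are named on the right; on the left they lie within the cloud of other genes, and on the right they lie along its upper edge.

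The etanercept remnant was also set against healthy liver, a comparison that uses the same etanercept reads as the preceding one. Again all 7 ND genes were called higher, where 21.9% of 10069 genes were. The sum was 12.98-fold higher (12.5 to 13.5). Nd1 was 18.8-fold higher (17.6 to 20.2), Nd5 12.9-fold (11.9 to 14.1), Nd2 12.7-fold (11.5 to 14.2) and Nd4 10.7-fold (9.91 to 11.6). Nd4l was 9.18-fold (7.57 to 11.3), Nd3 6.32-fold (5.62 to 7.13) and Nd6 6.003-fold higher (4.81 to 7.61). Nd1 led and Nd6 and Nd3 came last in both comparisons, which use the same etanercept library. The family's median log2 fold was 3.42, beside -0.043 over all genes tested, and 395 genes (3.92%) had a fold at or above it.

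Because most uniquely aligned reads of the etanercept library lay outside genes, the ND levels were also taken per uniquely aligned read. ND reads made up 0.0424% of these reads in healthy liver, 0.0391% in the saline remnant and 0.147% in the etanercept remnant. In that scaling the sum was 3.77-fold higher in the etanercept than in the saline remnant and 3.47-fold higher than in healthy liver. Over all genes tested the median log2 fold was then -2.42 against saline and -2.10 against healthy, while those of the ND genes were 1.55 and 1.52. All 7 ND genes stayed above both other libraries. Against saline 6 of 7 were at least 2-fold higher, where 1.32% of genes were, with Nd6 below 2-fold at a log2 fold of 0.72 (0.27 to 1.22). Against healthy 5 of 7 were, where 3.17% of genes were, with Nd3 at 0.76 (0.59 to 0.93) and Nd6 at 0.68 (0.36 to 1.03).

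The make-up of the ND reads, which does not depend on scaling between libraries, differed between the libraries as well. Nd1 supplied 27.8% of ND reads in healthy liver (26.2 to 29.4), 22.6% in the saline remnant (20.3 to 24.9) and 40.3% in the etanercept remnant (39.7 to 40.9). The 3 intervals did not overlap. Nd3 supplied 11.1% (10.03 to 12.2), 10.045% (8.48 to 11.8) and 5.40% (5.13 to 5.69), so that its part was smaller in the etanercept remnant alone. Nd5 supplied 19.9% (18.5 to 21.3) in healthy liver, 26.8% (24.5 to 29.3) in the saline and 19.8% (19.3 to 20.3) in the etanercept remnant, and thus differed in the saline remnant. The share of Nd2 was 12.7%, 12.97% and 12.4% in the same order, with overlapping intervals. Nd4 supplied 21.8%, 21.0% and 18.0%, and its interval in the etanercept remnant (17.6 to 18.5) lay below those of the other libraries. Nd4l supplied 3.72%, 3.37% and 2.64%, its etanercept interval (2.45 to 2.84) lying below the healthy one and overlapping the saline one. Leaving out Nd1, the member with the highest mean CPM over the 3 libraries, raises every other share. These shares are thus not independent of each other.

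**Figure D4:**
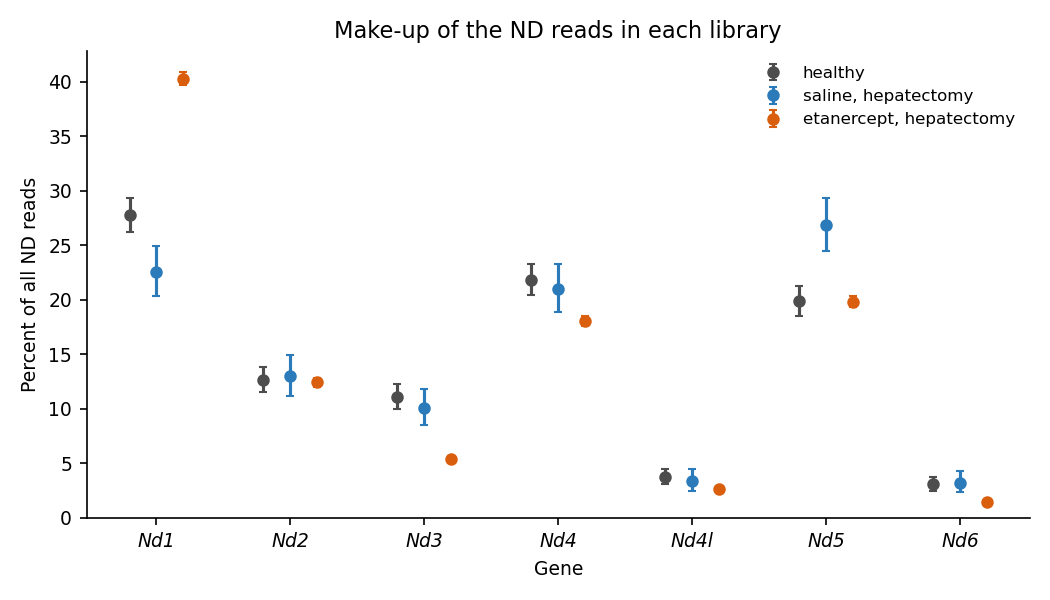
Percent of all ND reads that each ND gene supplied in each library, with exact 95% binomial (Clopper-Pearson) intervals. Nd1 reaches 40.3% in the etanercept remnant against 27.8% and 22.6%, and Nd5 is highest in the saline remnant at 26.8%. The points of all ND genes except Nd1 are lowest in the etanercept remnant. For Nd3, Nd4 and Nd6 the interval there lies below those of both other libraries.

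Reads counted for Nd6, the light-strand gene, made up a smaller part of the etanercept remnant's ND reads. They may include heavy-strand transcripts antisense to Nd6, as the strand setting of the counting is not given. Per 100 reads of the 6 heavy-strand genes there were 3.16 Nd6 reads in healthy liver (2.56 to 3.86) and 3.33 in the saline remnant (2.40 to 4.51). In the etanercept remnant there were 1.44 (1.30 to 1.60), below both. Without Nd1 among the heavy-strand genes the values were 4.43, 4.34 and 2.44. Against Nd3 alone no difference was resolved: the ratio of Nd3 to Nd6 reads was 3.62 in healthy liver, 3.12 in the saline and 3.80 in the etanercept remnant. The change of that ratio between etanercept and healthy was 1.05-fold, with an interval of 0.807 to 1.36.

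Nd4l and Nd4 adjoin in the mitochondrial genome and are carried on a single bicistronic message. There were 5.87 Nd4 reads per Nd4l read in healthy liver (4.82 to 7.19), 6.22 in the saline remnant (4.53 to 8.73) and 6.83 in the etanercept remnant (6.30 to 7.41). The ratio changed by 1.06-fold between saline and healthy (0.725 to 1.57), 1.10-fold between etanercept and saline (0.775 to 1.53) and 1.16-fold between etanercept and healthy (0.935 to 1.44). No change was thus resolved at this depth, which leaves room for one as large as those bounds. Nd1 and Nd5 differed more: 1.40 Nd1 reads per Nd5 read in healthy liver, 0.841 in the saline remnant and 2.03 in the etanercept remnant. Their intervals of 1.26 to 1.55, 0.719 to 0.983 and 1.96 to 2.10 did not overlap. Over all 21 pairs of ND genes, the interval of the change of ratio left out no change for 6 pairs in saline against healthy. It did so for 15 in etanercept against saline and 18 in etanercept against healthy. Nd4 with Nd4l and Nd3 with Nd6 were the pairs whose interval included no change in all 3 comparisons. The largest change of a ratio either way was 1.66-fold in saline against healthy, 4.05-fold in etanercept against saline and 3.12-fold in etanercept against healthy. These intervals were not adjusted for their number, and libraries with more ND reads resolve smaller differences.

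Of 1360 other genes whose mean level reached 100 CPM, 17 (1.25%) lay within the range of the 7 ND genes in both their saline and their etanercept fold against healthy. Only 5 of the 7 ND genes reach that mean themselves, Nd4l (80.1 CPM) and Nd6 (47.2 CPM) being below it, and the mean includes the etanercept library, in which the ND genes are high. The nearest to the family's median pair of log2 folds (-0.59 and 3.42) was ENSRNOG00000042318, at a Euclidean distance of 0.079 on the log2 scale. It stood at 211 CPM in healthy liver, 140 CPM in the saline and 2147 CPM in the etanercept remnant. The next was ENSRNOG00000032437, at a distance of 0.17, with 108, 78.5 and 1267 CPM. Likeness rests on 3 libraries, and the tables give neither gene a name.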

How the data were processed

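Each deposited table holds raw counts of reads for Ensembl gene identifiers of the rat. Per the labels' protocols the RNA was total RNA depleted of ribosomal RNA, and per the series description it was read on Ion Torrent. The submitters' processing notes name TopHat2 2.0.13 and HTSeq 0.6.1; genome build, annotation and strand setting: not given in the sources used here. The 5 summary rows without a gene stayed out of library sizes; in the order healthy, saline, etanercept, reads outside genes were 19.9%, 21.7% and 77.4% of uniquely aligned reads, and reads shared by several genes 0.729%, 0.871% and 1.69%.

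TMM over all identifiers (edgeR 4.0.16, R 4.3.3) gave factors of 0.896, 1.22 and 0.912, and 1 read was worth 0.186, 0.309 and 0.301 CPM. Folds compare scaled counts after adding 0.5 counts to each. A gene was tested with at least 5 CPM in the higher library and called at 2-fold. Intervals are exact (Poisson for levels, Clopper-Pearson for shares and folds, conditional odds ratio for changes of pair ratios; scipy 1.17.1, Python 3.11.15). The calls were tested on simulated data that held counting error only, so spread between animals and shifts in library make-up were not covered. The 3 comparisons share libraries. Alternatives changed the scaling, filters, thresholds and pseudocount.

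The members and lists were chosen with earlier results of these data known. All members are named, and beyond them the 2 identifiers nearest in pattern among genes of at least 100 CPM. The reference table gave 0 Ensembl identifiers and 0 of the ND genes, so liver markers, nuclear complex I genes, other mitochondrial genes and levels per coding length were not analysed here, and no sequence is shown.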

Additional observations from a re-analysis of the deposited data

Results flagged for a closer look

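Both hepatectomy libraries were set against the same healthy library, and 5 ND genes lay below it in the saline library and above it in the etanercept library, with counting intervals that left out no difference each time under TMM, as for 4.4% of the 9477 genes tested in both. Per total gene read this held for 1 ND gene, Nd1, beside 1.15% of genes, and per uniquely aligned read for Nd1, beside 0.301%. With TMM the log2 folds in saline and etanercept were -0.83 and 4.23 for Nd1 and -0.49 and 3.67 for Nd2. They were -0.67 and 2.66 for Nd3, -0.59 and 3.42 for Nd4, and -0.66 and 3.20 for Nd4l. With 1 library per group this difference was not tested. Reads in no annotated gene are not among the ND counts, but are part of the total in levels per uniquely aligned read. They were 21.7% of the uniquely aligned reads after saline and 77.4% after etanercept, above the 19.9% of healthy liver.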

How the results depend on the processing

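The number of ND genes called kept within 1.5 times under every alternative run, except that a 1.5-fold threshold called 4 lower in saline against healthy, where 21.5% of genes were. The log2 fold of the summed ND reads in saline against healthy was -0.53, -0.082 per total gene read and -0.12 per uniquely aligned read. In etanercept against saline it was 4.23, 3.81 per total gene read and 1.91 per uniquely aligned read. In etanercept against healthy it was 3.70, 3.77 with median-of-ratios factors, 3.63 with upper-quartile factors and 1.80 per uniquely aligned read. The ND share of reads was 0.0424%, 0.0391% and 0.147% over uniquely aligned reads (healthy, saline, etanercept), and 0.0705%, 0.0645% and 0.951% over gene reads without the 10 most abundant other genes. These moves follow from the denominators. Without Nd1, Nd6 reads per 100 heavy-strand reads were 4.43 in the healthy and 2.44 in the etanercept library; leaving out Nd4l stayed within counting error. Scaling factors without the ND genes, a filter at 10 counts, a minimum of 1 CPM and a pseudocount of 5 moved no summed fold beyond its interval. No paired analysis was possible because each group is 1 library, and no replicate could be left out. Nd4l and Nd6, with 45 and 43 reads in the saline library, limit the precision most.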
